A study of Mus musculus with 16 samples.

Results

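The genes described here encode the voltage-gated sodium channels, the voltage-gated calcium channels and the hyperpolarization-activated (HCN) channels. They were chosen by symbol: sodium channel alpha and beta subunits (Scn followed by a number and a or b), calcium channel alpha1 and alpha2delta subunits (Cacna1, Cacna2), calcium channel beta subunits (Cacnb1 to Cacnb4) and the Hcn genes. The rule took 36 of the 24972 genes in the deposited files. They were 10 sodium channel alpha subunits, 4 sodium channel beta subunits, 10 calcium channel alpha1 subunits, 4 alpha2delta subunits, 4 calcium channel beta subunits and 4 HCN channels.

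The 16 bulk RNA-seq libraries came from CA1, CA3 and dentate gyrus (DG) tissue of the dorsal hippocampus. Trained mice had learned the active place avoidance task, in which the animal keeps out of an unmarked shock zone on a rotating arena, and untrained mice walked the same arena without shock. All mice, untrained ones included, were ArcCreERT2::eYFPflx on a C57BL/6 background and 3 to 4 months old. In that genotype the Arc regulatory sequence drives an inducible Cre that switches on a floxed eYFP reporter, but the libraries were made from whole dissected tissue, not from reporter-positive cells. The retention test followed training by 24 h and the tissue was taken 60 min after the test. Pieces of each subregion were pooled within an animal. There were 3 libraries per training group for CA1, while CA3 and DG each had 3 from trained and 2 from untrained mice. The labels number the libraries 1 to 3 within each training group, and by those numbers the 16 libraries stand for 3 trained and 3 untrained mice.

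Voltage-gated sodium channels open on depolarization and carry the rising phase of the action potential. Voltage-gated calcium channels turn depolarization into calcium entry: the Cav1 (L-type) channels signal to the nucleus, the Cav2 (P/Q-, N- and R-type) channels trigger transmitter release, and the Cav3 (T-type) channels open near rest and support bursts. HCN channels open on hyperpolarization, pass a mixed cation current and shape dendritic integration in hippocampal pyramidal cells. In each family a pore-forming alpha subunit is joined by auxiliary subunits that set trafficking and gating.

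The subregion labels were compared with marker genes before any channel gene was read. Prox1, the defining transcription factor of dentate granule cells, lay between 2690 and 4786 in all 16 libraries and was highest in a CA3-labelled library (untrained replicate 1). The summed level of 6 dentate granule markers was 7616 to 9555 in untrained and 9028 to 9254 in trained CA1-labelled libraries, against 10273 to 10468 and 8337 to 8698 in the DG-labelled ones. The summed level of 6 CA1 pyramidal markers was 3590 to 5709 in untrained CA1-labelled libraries and 1898 to 2352 in trained ones, against 1107 to 2384 in the CA3- and DG-labelled libraries. None of these markers was listed at 0 in any library. The libraries labelled CA1 and CA3 therefore held dentate granule transcripts at about the level of those labelled DG, and the subregion names below are those of the labels. Fewer cells of a type and less RNA per cell cannot be told apart in bulk tissue.

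**Figure D1:**
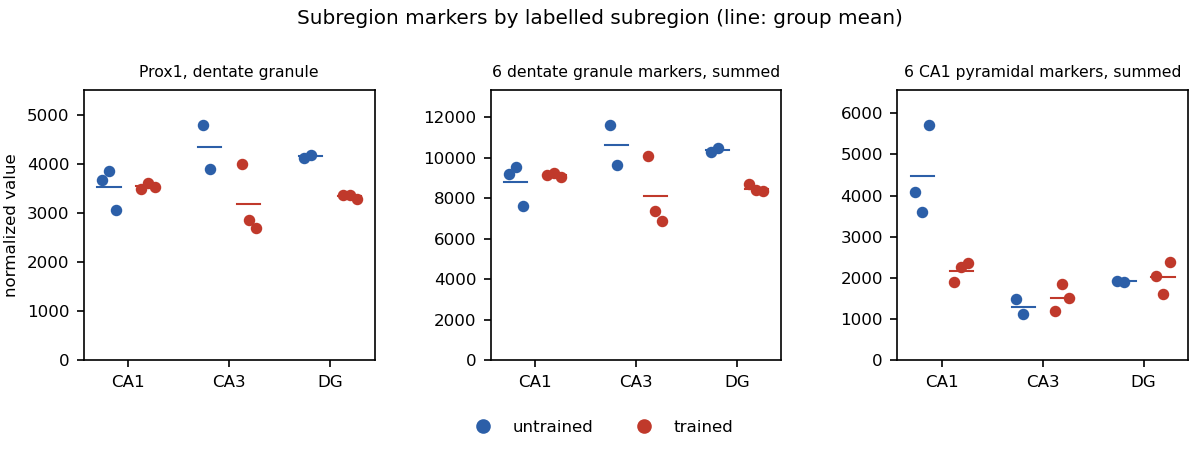
Each panel shows the deposited normalized value (vertical axis, from 0) in each of the 16 libraries by labelled subregion, with untrained libraries in blue, trained libraries in red and a line at each group mean. Prox1 and the 6 summed dentate granule markers lie at similar levels under all 3 labels, and the 6 summed CA1 pyramidal markers stand out in untrained CA1 libraries only (3590 to 5709).

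The libraries also differed in ways that the training groups share. Xist, the transcript of the inactive X chromosome, was 7601 to 19592 in the 9 trained libraries. Among the 7 untrained libraries, CA3 replicate 1 had 10587 and the other 6 had at most 52.4. The CA1 and DG libraries of the same number had 26.1 and 25.5, and Ddx3y, a Y-linked gene, was 201 in that CA3 library against 553 and 448 in those. The same number therefore does not safely identify the same mouse. Some trained libraries also held both transcripts: DG replicate 3 had Xist at 7601 and Ddx3y at 255. Ddx3y was 101 in CA1 replicate 3, 92.9 in CA3 replicate 3 and 70.9 in CA1 replicate 1 of the trained libraries. It was 1.66 to 12.9 in the rest of them. The study's methods place both sexes in each training group. Differences between trained and untrained libraries and differences between these sex-linked levels largely cannot be told apart, and a sex-linked covariate separates the training groups within each label by itself. With that covariate in the fit no channel gene passed in CA1, CA3, DG or over all libraries (limma). The differences described below kept their direction and ranged from little changed (Cacna1c in CA1, 0.34 against 0.36 without it, and Cacna1b in CA3, 0.45 against 0.40) to much smaller (Cacna1a in CA1, 0.07 against 0.23) or larger (Cacna1g in DG, 0.94 against 0.52). In addition, 7 libraries (the 3 of trained CA1, the 2 of untrained DG, and replicates 1 and 2 of trained CA3) listed 7567 to 9759 genes at 0, and the other 9 listed 3124 to 5944. Within CA1 and within DG that split coincides with training.

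The channel genes spanned a wide range of levels, and genes of a family mostly kept their order from library to library. Levels are compared between genes as the normalized value per kb of the longest protein-coding transcript, here called the level per kb. Among sodium channel alpha subunits, Scn2a (Nav1.2, the axonal channel of young and unmyelinated axons) led with 595 ± 21.9 (SD, n = 16 libraries). Scn8a (Nav1.6, the main channel of the mature axon initial segment) followed with 492 ± 22.5, and the ranges of these 2 genes over the 16 libraries did not overlap. Scn3a (Nav1.3, the channel most used before birth) at 149 ± 15.99 and Scn1a (Nav1.1, prominent in fast-spiking interneurons) at 142 ± 9.07 came next, with ranges that overlapped. Scn2a and Scn8a together with these 2 genes left little for the rest: Scn7a (4.20), Scn9a (2.36), Scn4a (0.900), Scn11a (0.449) and Scn10a (0.310) were all far lower. These are known from glia, peripheral sensory neurons and skeletal muscle.

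Among the sodium channel beta subunits, which modulate gating and act as adhesion molecules, Scn3b was at 657 ± 60.9 per kb and Scn2b at 536 ± 30.2, and their ranges overlapped over the 16 libraries. Scn4b stood clear below them at 31.8 ± 5.74. With the length of all annotated exons in place of the longest transcript, Scn2b (536) moved above Scn3b (499).

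Cacna1e, which encodes the R-type channel Cav2.3, was the leading calcium channel alpha1 subunit at 604 ± 44.5 per kb and did not overlap with any other. Cacna1a (P/Q-type, Cav2.1) at 243 ± 20.4, Cacna1h (T-type, Cav3.2) at 212 ± 26.3, Cacna1c (L-type, Cav1.2) at 191 ± 20.5, Cacna1b (N-type, Cav2.2) at 157 ± 15.7 and Cacna1d (L-type, Cav1.3) at 121 ± 11.9 followed, and each overlapped with the next. Below them Cacna1i (T-type, Cav3.3) at 63.1 ± 13.7 overlapped with Cacna1g (T-type, Cav3.1) at 32.3 ± 7.77. Cacna1s and Cacna1f, the skeletal muscle and retinal L-type channels, were near 0 at 0.556 and 0.189. Summed over genes, Cav2 subunits made up 60.6% to 63.5% of the alpha1 level per kb in each library, Cav1 16.9% to 20.9% and Cav3 16.2% to 20.4%. Counting all exons in the length put Cacna1h (178) above Cacna1a (169) and Cacna1b (154) above Cacna1c (118), so the order of these 4 genes depends on the length used.

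Of the auxiliary calcium channel subunits, Cacna2d1 was the leading alpha2delta subunit, the extracellular partner and gabapentinoid target, at 404 ± 15.9 per kb. Cacna2d3 was at 192 ± 16.9, Cacna2d2 at 22.2 ± 3.62 and Cacna2d4 at 2.24 ± 0.957, and no neighbours in this order overlapped. The intracellular beta subunits were closer to each other than the alpha2delta subunits. Cacnb3 was at 437 ± 28.3, Cacnb1 at 225 ± 20.6, Cacnb4 at 205 ± 12.2 and Cacnb2 at 121 ± 6.19, where Cacnb1 and Cacnb4 overlapped. Counting all exons in the length put Cacnb4 (188) above Cacnb1 (169) and left Cacnb2 at 35.95, against 298 for Cacnb3. The order of Cacnb1 and Cacnb4 and the distance of Cacnb2 from the other beta subunits therefore depend on the length used. Hcn2 led the HCN channels with 165 ± 25.5 per kb, far above Hcn3 at 15.1 ± 2.03 and Hcn4, the pacemaker channel of the heart, at 2.58 ± 1.07, and these 3 genes did not overlap. Hcn2 held 67.9% to 77.3% of the summed HCN level per kb in each library.

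**Figure D2:**
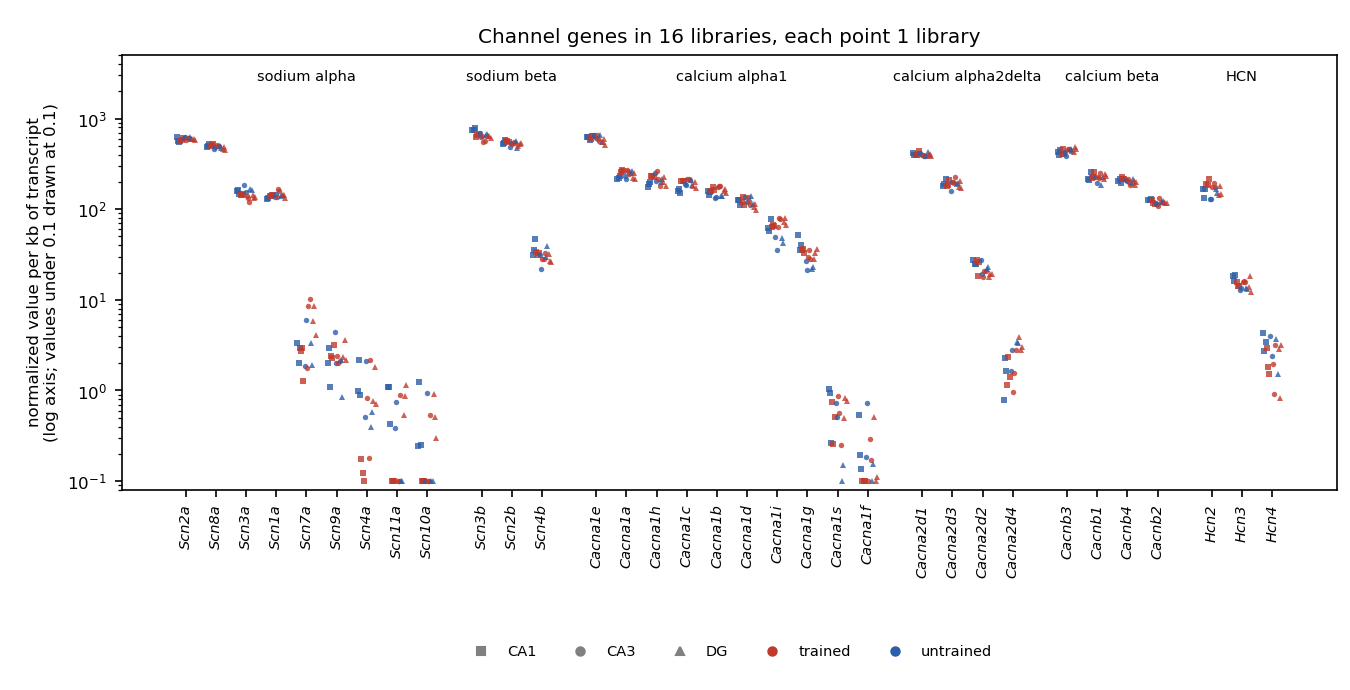
Level per kb of 33 of the 36 genes (vertical log axis, values under 0.1 drawn at 0.1) in the 16 libraries, grouped by family and ordered by mean level, with the labelled subregion given by the marker shape and training by the color. Points of the well expressed genes lie close together, those of low-level genes spread more widely (Scn7a from 1.26 to 10.3, Hcn4 from 0.822 to 4.32), and Cacna1s, Cacna1f, Scn10a and Scn11a lie near 0.

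The first comparison asked whether channel transcripts differed between the labelled subregions, with training as a term in the fit. Of the 31 channel genes with a value of at least 10 in at least 5 libraries, 0 passed an adjusted p of 0.05 in CA1 minus DG, CA1 minus CA3 or CA3 minus DG (limma, Benjamini-Hochberg over all genes tested). Over all 13926 genes tested, 2.02%, 0.223% and 0% passed. At an unadjusted p under 0.05, 6, 4 and 2 channel genes lay past the limit in the 3 contrasts, where 17.6%, 8.94% and 5.04% of all genes did. The interval of the difference lay within 1.5-fold in either direction for 25, 25 and 26 of the 31 genes. The CA1 pyramidal, CA3 pyramidal and dentate granule markers also had 0 of 6 genes past the threshold in each contrast. These contrasts compare the labels and cannot show whether channel transcripts differ between the subregions themselves.

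The channel gene with the largest differences on both sides of CA1 among the well expressed ones was Cacna1g, chosen here after its values were seen. It was 439, 299.6 and 335 in untrained CA1 libraries and 272 to 305 in trained ones, against 181 to 299 in CA3 and 183 to 302 in DG. Its log2 difference was 0.47 (95% interval 0.17 to 0.77) for CA1 minus DG and 0.46 (0.17 to 0.76) for CA1 minus CA3, with adjusted p = 0.0890 and 0.213 (limma). Of the alternatives run, a term for the libraries with many genes at 0 was the one under which it passed, in CA1 minus DG. All 4 HCN genes had a positive difference in CA1 against either of the other labels (medians 0.20 against DG and 0.15 against CA3), but each of their intervals included 0. Positive differences were also found in 23 of the 31 channel genes against DG and 20 against CA3, where 49% and 48.6% of all genes were positive. The low-level Cacna2d4 had a log2 difference of -0.97 (-1.59 to -0.35) in CA1 minus DG, with values of 4.61 to 13.5 in CA1 and 16.1 to 22.8 in DG libraries that did not overlap (adjusted p = 0.0864, limma).

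The main comparison was trained minus untrained within each labelled subregion. Of the 32 channel genes tested in at least 1 subregion, 10 passed the threshold in 1 subregion and 0 in more than 1 (limma), where 7.62% and 0.754% of all 14196 genes tested did. A pass under one label and not under another does not show that the labels differ: Hcn2 passed in CA3 and lay at adjusted p = 0.0518 in CA1, and Cacna1i passed in DG and lay at 0.0698 in CA3 (limma). Higher in trained libraries were Cacna1a, Cacna1c and Cacna1h in CA1, 3 genes that include Cacna1b and Hcn2 in CA3, and Cacna1g and Cacna1i in DG. Lower were Scn3b in CA1 and Scn3a in DG. These changes ran from 0.834-fold to 1.61-fold on the log2(value + 2) scale. The directions of Cacna1a, Cacna1c and Cacna1h in CA1 and of Scn3a in DG turned when libraries were rescaled by the upper quartile of their genes above 0, which moved the median gene by -0.38 to 0.33 (log2) per library, and held when the quartile was taken over genes above 0 in every library.

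In CA1, 3 of the 30 tested channel genes were higher and 1 was lower in trained libraries, where 5.23% of all 13588 genes tested passed in either direction (3.53% higher, 1.7% lower). The 3 that rose were all calcium channel alpha1 subunits. Cacna1c, the L-type channel that couples synaptic activity to gene transcription, was 2103, 2185 and 1993 in the untrained libraries and 2695, 2674 and 2691 in the trained ones. The groups did not overlap, and the difference was 0.36 ± 0.05 (log2, SE; 1.28-fold; adjusted p = 0.000256, limma). Cacna1h, a T-type channel active near the resting potential, was 1447, 1544 and 1635 in untrained and 1914, 1936 and 1858 in trained libraries. It rose by 0.30 ± 0.06 (1.23-fold, adjusted p = 0.00309, limma) without overlap. Cacna1a, the P/Q-type channel of most fast synapses, was 1722, 1749 and 1838 in untrained and 2021, 2123 and 2098 in trained libraries. Its difference was 0.23 ± 0.05 (1.18-fold, adjusted p = 0.0126, limma), again without overlap. Scn3b, the beta3 subunit that modulates sodium channel gating, was 3086, 3096 and 3224 in untrained and 2595, 2703 and 2770 in trained libraries. It fell by 0.22 ± 0.05 on the log2 scale (0.858-fold, adjusted p = 0.0102, limma).

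Other channel genes in CA1 did not pass. Hcn2 came nearest, at 424 to 539 in untrained and 587 to 692 in trained libraries without overlap (log2 difference 0.33 ± 0.10, adjusted p = 0.0518, limma). In all, 9 of the 30 genes had groups that did not overlap, 5 of them higher and 4 lower in trained libraries, which is near the 24% of all genes tested that did so. The median difference over the 30 genes was 0.03, against 0.00 over all genes. Cell type markers moved with the same contrast, counted here at the same threshold (adjusted p under 0.05, limma). Of the 6 CA1 pyramidal markers 2 were lower in trained CA1 libraries (median log2 difference -0.94), 4 of 5 pan-neuronal markers were higher (summed level 33878 to 34077 in trained and 26726 to 29025 in untrained libraries), and 3 of 6 CA3 pyramidal markers passed as higher (Cpne4, Grik4 and Trps1) with 1 as lower (Coch). Of the mural markers 1 of 4 passed, higher (Myh11), and of the astrocyte markers 1 of 5, lower (Aqp4). With the CA1 pyramidal marker level as a covariate, chosen after seeing the data, none of the 4 genes passed. The summed level of these markers separates the CA1 training groups by itself (1898 to 2352 in trained, 3590 to 5709 in untrained libraries). This fit therefore largely cannot tell marker level and training apart. The difference of Cacna1c fell from 0.36 to 0.15 and that of Scn3b changed from -0.22 to -0.09, while those of Cacna1a (0.39) and Cacna1h (0.46) were larger than without it. In all, 6 of the 14 marker lists had summed levels that did not overlap between trained and untrained CA1 libraries: CA3 pyramidal, pan-neuronal and endothelial were higher in the trained ones, and CA1 pyramidal, CA2 and astrocyte lower. The part of these cell types in the CA1 result was not tested. Without trained replicate 2, Cacna1c and Cacna1h were the 2 channel genes to pass in CA1.

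In CA3, 3 of 32 tested channel genes were higher in trained libraries and 0 were lower, where 0.852% of 13848 genes passed in either direction (0.737% higher, 0.116% lower). Hcn2, the main HCN transcript here, was 415.5 and 409 in the untrained libraries and 555, 628 and 565 in the trained ones. The difference was 0.49 ± 0.09 (1.41-fold, adjusted p = 0.0327, limma) without overlap. Cacna1b, the N-type channel of presynaptic terminals, was 1296 and 1336 in untrained and 1728, 1740 and 1758 in trained libraries. It rose by 0.40 ± 0.07 (1.32-fold, adjusted p = 0.0324, limma), and these groups also did not overlap.

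The largest CA3 difference among well expressed channel genes was in one that did not pass. Cacna1i was 488 and 347 in untrained and 630, 789 and 765 in trained libraries (log2 difference 0.81 ± 0.16, adjusted p = 0.0698, limma). In all, 13 of 32 genes did not overlap, 11 higher and 2 lower in trained libraries. Of all 13848 genes tested, 33.9% did not overlap, 2388 higher and 2312 lower. The CA3 calls rest on 2 untrained libraries. With untrained replicate 1 left out, whose Xist level stands apart, Cacna1i was the 1 gene to pass, and with untrained replicate 2 or trained replicate 2 left out none passed. Without trained replicate 3 Hcn2 alone passed, and without trained replicate 1 there were 6. Choroid plexus markers were lower in the trained CA3 libraries, 2 of 6 past the threshold (summed level 241 to 329, against 827 to 1127), and all 6 were above 0 in every CA3 library. Of the interneuron markers 1 of 8 passed the threshold, higher in trained libraries (Sst). Summed CA2 and astrocyte markers were also lower and summed pan-neuronal and oligodendrocyte precursor markers higher in trained CA3 libraries without overlap, and the part of these markers in the result was not tested. The CA3 difference of Hcn2, the gene of highest transcript GC content among the 36, shrank to 0.18 once a trend with GC content and length was removed, whereas that of Cacna1b was 0.42, and no channel gene then passed.

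In DG, 2 of 31 tested channel genes were higher and 1 was lower in trained libraries, where 3.39% of 13935 genes passed (1.74% higher, 1.66% lower). Both that rose were T-type channels. Cacna1i was 474 and 410 in untrained and 707, 789 and 649 in trained libraries. The groups did not overlap and the difference, 0.69 ± 0.10 (1.61-fold, adjusted p = 0.00180, limma), was the largest among the genes that passed within a subregion. Cacna1g was 183 and 194 in untrained and 237, 275 and 302 in trained libraries, a rise of 0.52 ± 0.13 (1.43-fold, adjusted p = 0.0379, limma). Scn3a was 1605 and 1556 in untrained and 1373, 1272 and 1309 in trained libraries. It fell by 0.26 ± 0.07 on the log2 scale (0.834-fold, adjusted p = 0.0484, limma).

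The third T-type gene, Cacna1h, was 1633 and 1761 in untrained and 1638, 1843 and 1465 in trained DG libraries, with groups that overlapped (log2 difference -0.05 ± 0.09). In all, 12 of 31 genes did not overlap in DG, 6 in each direction, against 35.6% of all genes. Among markers, 2 of 6 dentate granule genes (Prox1 and Stxbp6), 2 of 4 CA2 genes (Pcp4 and Map3k15), and 1 gene each of the endothelial (Flt1), mural (Rgs5) and CA3 pyramidal (Prkcd) lists passed the threshold of 0.05, all lower in trained DG libraries (limma). Summed levels did not overlap for 7 of the 14 marker lists. In trained against untrained libraries they were 8337 to 8698 against 10273 to 10468 for dentate granule, 1136 to 1293 against 1443 to 1567 for CA2, 382 to 411 against 548 to 738 for endothelial and 608 to 655 against 736 to 972 for mural markers. Oligodendrocyte markers were also lower, and interneuron and oligodendrocyte precursor markers higher, in sum. The part of these cell types in the result was not tested. Without trained replicate 1 or 3 Cacna1i alone passed in DG, without trained replicate 2 no channel gene did, and without untrained replicate 3 there were 7.

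**Figure D3:**
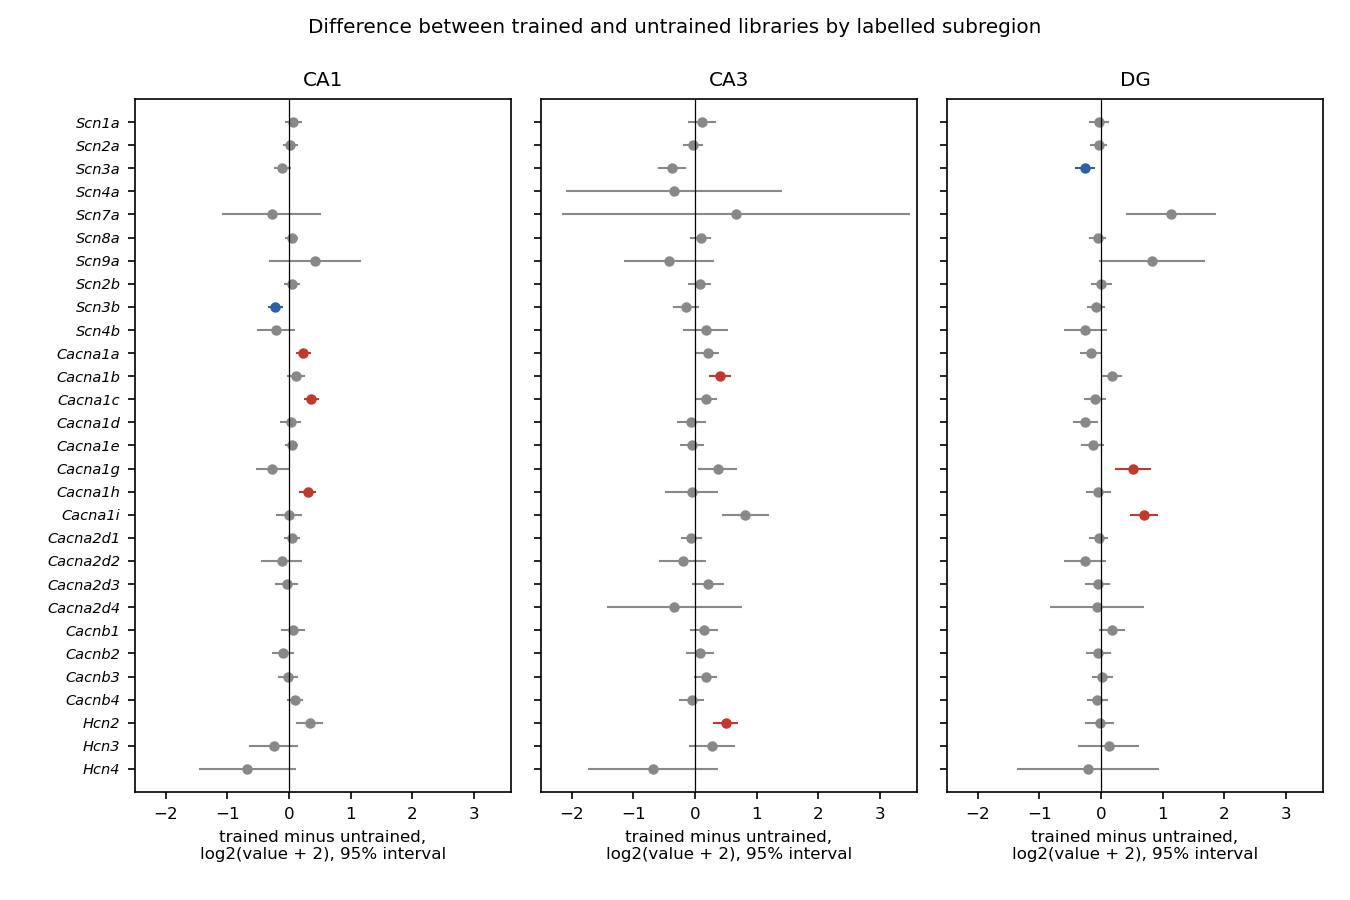
Difference between trained and untrained libraries on the log2(value + 2) scale (horizontal axis) for channel genes tested in each labelled subregion, with 95% intervals, in red where higher and blue where lower at an adjusted p under 0.05 and in grey otherwise. No gene is colored in more than 1 panel, and the widest intervals belong to low-level genes such as Scn7a and Hcn4.

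Over all 16 libraries, with the subregion as a term, 4 of 32 channel genes were higher and 2 were lower in trained libraries, where 10.3% of 14673 genes passed in either direction (6.28% higher, 4.06% lower). They include Cacna1b (0.22 ± 0.05, adjusted p = 0.00317, limma), Cacna1i (0.46 ± 0.13, 0.0407) and Hcn2 (0.27 ± 0.08, 0.0253), which rose, and Scn3a (-0.24 ± 0.05, 0.00303) and Scn3b (-0.16 ± 0.04, 0.0120), which fell. Scn3a was lower in trained libraries under every label, with no overlap between the groups in any of them: 1368 to 1401 against 1418 to 1560 in CA1, 1151 to 1351 against 1490 to 1769 in CA3, and the DG values above. Cacna1b had a positive difference under every label, at 0.11 (CA1), 0.40 (CA3) and 0.18 (DG), and its groups overlapped in CA1 (1412 to 1560 untrained, 1541 to 1699 trained). Cacna1i differed by 0.00 in CA1, where both groups overlapped, and its difference over all libraries reflects the values in CA3 and DG. The comparison of all libraries shares its libraries with the 3 comparisons within a subregion and adds no new samples.

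Leaving out the CA3 library of untrained replicate 1, or all libraries of untrained replicate 1, gave 3 genes each, and leaving out trained replicate 2 gave 2 (Cacna1b and Scn3a). Cacna1i passed in 1 of the 6 fits that left out a replicate. Leaving out the CA3 library of untrained replicate 1 left Cacna1b, Scn3a and Scn3b past the threshold over all libraries. After a trend with GC content and length was removed, the difference over all libraries was 0.08 for Hcn2 and -0.09 for Scn3b.

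**Figure D4:**
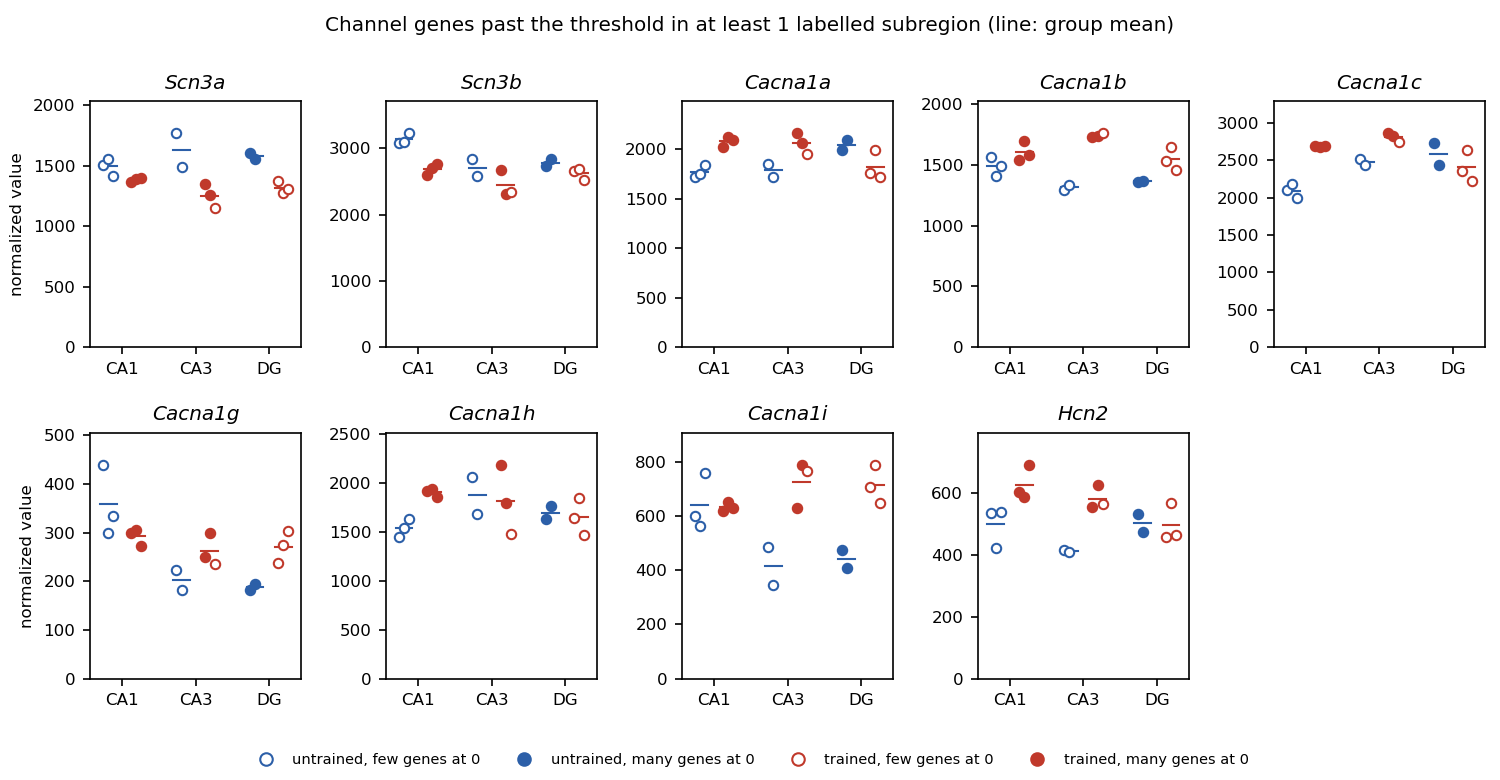
Normalized value (vertical axis, from 0) of 9 of the 10 channel genes that passed within a labelled subregion, in each of the 16 libraries, with untrained libraries in blue, trained libraries in red, group means as lines and filled points for the 7 libraries with many genes at 0. Cacna1c is 2674 to 2695 in the 3 trained CA1 libraries and 1993 to 2185 in the 3 untrained ones, Cacna1i is low in untrained CA3 and DG libraries, and the highest Cacna1a values belong to filled points.

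For 3 of the 6 genes that passed over all libraries, the RefSeq table of promoters on GRCm38.p6 held an entry, and the 250 bases before the annotated start are shown because these 3 genes passed, higher in trained libraries, in that comparison. They did not all differ under every label, as the values above show. Capitals mark each GC box (GGGCGG) and each cyclic AMP response element half-site (TGACG), on either strand. The windows are chr2:24763153-24763402 (minus strand) for Cacna1b, chr15:80286988-80287237 (plus strand) for Cacna1i and chr10:79716384-79716633 (plus strand) for Hcn2, all directly upstream of the first exon.
Cacna1b: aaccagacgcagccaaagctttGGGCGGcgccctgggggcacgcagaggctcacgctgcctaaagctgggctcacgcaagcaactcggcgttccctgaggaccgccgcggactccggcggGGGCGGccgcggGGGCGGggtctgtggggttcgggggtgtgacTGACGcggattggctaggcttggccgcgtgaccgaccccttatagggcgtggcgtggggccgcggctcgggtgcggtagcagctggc
Cacna1i: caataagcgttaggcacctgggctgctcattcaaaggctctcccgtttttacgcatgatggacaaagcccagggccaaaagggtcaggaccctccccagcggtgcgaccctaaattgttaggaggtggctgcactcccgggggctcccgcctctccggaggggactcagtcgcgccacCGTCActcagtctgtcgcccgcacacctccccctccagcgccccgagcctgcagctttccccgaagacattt
Hcn2: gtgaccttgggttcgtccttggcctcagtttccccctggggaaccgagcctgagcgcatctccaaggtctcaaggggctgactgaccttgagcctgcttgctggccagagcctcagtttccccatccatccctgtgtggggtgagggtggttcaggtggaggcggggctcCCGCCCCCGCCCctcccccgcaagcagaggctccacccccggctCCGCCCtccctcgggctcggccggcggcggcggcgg
The Cacna1b window held 3 GC boxes and 1 half-site, the Cacna1i window 0 and 1, and the Hcn2 window 3 and 0. Of all 32851 promoter windows of this length, 32.7% held a GC box and 17.8% a half-site. Of the 36 windows of the 26 channel genes with an entry, 15 (41.7%) held a GC box and 6 (16.7%) a half-site (in Cacna1b, Cacna1c, Cacna1i, Cacna2d1, Cacnb2 and Scn10a), and 0 held the full element TGACGTCA, which 1.55% of all windows held. GC content was 72.0%, 62.4% and 70.4% in the 3 windows, against a median of 52.4% over all windows. A match describes these letters and is not a measured binding site.

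The last question was whether the difference between trained and untrained libraries itself differed between labelled subregions, tested as an interaction between subregion and training over all 16 libraries. Between CA1 and DG, 3 of 32 channel genes passed, where 2.75% of all genes did. Between CA1 and CA3 and between CA3 and DG, 0 channel genes passed (limma), where 0.0273% and 0.164% of all genes did. At an unadjusted p under 0.05 there were 6 channel genes in each, where 6.71% and 11.7% of all genes lay past that limit. All 3 genes were calcium channel alpha1 subunits.

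Cacna1c differed between trained and untrained libraries by 0.36 in CA1 and by -0.10 in DG, where it was 2730 and 2432 in untrained and 2358, 2635 and 2228 in trained libraries. The interaction was 0.46 ± 0.09 (adjusted p = 0.0137, limma). Cacna1a showed the same pattern, 0.23 in CA1 and -0.17 in DG, with 1996 and 2092 in untrained and 1754, 1992 and 1721 in trained DG libraries (interaction 0.40 ± 0.09, adjusted p = 0.0240, limma). Cacna1g went the other way, at -0.27 in CA1 (adjusted p = 0.221) and 0.52 in DG, and its interaction was -0.79 ± 0.19 (adjusted p = 0.0291, limma). Cacna1a passed in none of the 6 fits that left out a replicate (adjusted p from 0.0537 to 0.0948, limma). Cacna1c passed in 4 of them and Cacna1g in 2. None of the 3 passed without trained replicate 3 or untrained replicate 1.

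The Cacna1a pattern also follows the number of genes at 0, and that of Cacna1c does so with overlap. Cacna1a was 1996 to 2159 in the 7 libraries with many genes at 0 and 1716 to 1992 in the other 9, without overlap. It was the 1 of 32 channel genes to separate them, where 0.906% of all genes did. Cacna1c was 2432 to 2861 in the 7 and 1993 to 2744 in the 9, with overlap. Since the 7 libraries include all trained CA1 and all untrained DG libraries, the interaction between CA1 and DG and this split cannot be told apart within those labels. A term for the split, chosen after seeing the data and estimated from the 3 trained CA3 libraries alone, left differences of 0.17 for Cacna1a, 0.36 for Cacna1c and -1.23 for Cacna1g, and none passed (adjusted p = 0.9995 for each, limma). In CA3, where both kinds of trained library occur, Cacna1a was 2159 and 2067 in the trained libraries with many genes at 0, 1949 in the one with few, and 1854 and 1716 in the untrained ones, all with few. Cacna1c was 2861, 2829 and 2744 in the same trained libraries, against 2522 and 2437 in untrained ones.

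Among the HCN channels, Hcn2 differed between trained and untrained libraries by 0.33 in CA1, 0.49 in CA3 and -0.03 in DG, where it was 533 and 476 in untrained and 458, 569.6 and 465 in trained libraries. Hcn3 differed by -0.25, 0.27 and 0.12 and Hcn4 by -0.68, -0.68 and -0.22 in the same order, and neither passed.

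The most abundant alpha subunits, Scn2a, Scn8a and Cacna1e, passed in no comparison. Scn2a differed between trained and untrained libraries by 0.02, -0.03 and -0.04 in CA1, CA3 and DG, with intervals inside -0.19 and 0.12. Scn8a differed by 0.04, 0.09 and -0.06, and Cacna1e by 0.05, -0.05 and -0.13. None of the 4 alpha2delta and none of the 4 calcium channel beta subunits passed in any comparison of training, and their differences over all libraries ran from -0.19 to 0.03 and from -0.03 to 0.12. In total 25 of the 36 genes passed in no comparison, including Cacna1f, Cacna1s, Scn10a and Scn11a, which were too low to be tested in any of them.

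Genes known to bind or anchor these channels were listed with earlier results in view. Of the 32 listed, 26 were tested in CA1, and 7 were higher and 0 lower in trained libraries (Cabp1, Cntn1, Fgf13, Rims1, Rims2, Sptbn4 and Stac2), where 3.53% of all genes tested were higher and 1.7% lower. Cell type markers, Xist and the number of genes at 0 differed between the same CA1 libraries, as described above. Their part in these partner differences was not tested. Lower partner genes did not pass in CA1: Pex5l, the HCN trafficking partner also called TRIP8b, was 1846 to 2728 in untrained and 1426 to 1466 in trained libraries (log2 difference -0.62, adjusted p = 0.0697, limma), and Stac and Gem differed by -0.78 and -0.93 (adjusted p = 0.0915 and 0.160). A further 7 genes of the sodium leak channel complex, a separate channel, were listed beside them, and of the 4 tested in CA1 Unc80 was higher. Stac2, an adaptor of L-type channels, was 239 to 278 in untrained and 410 to 426 in trained CA1 libraries, a rise of 0.70 ± 0.09 (adjusted p = 0.000112, limma). It was also the 1 partner gene to pass in CA3, where 0.737% of all genes passed as higher, with a rise of 0.74 ± 0.09 (adjusted p = 0.00733, limma), from 263 and 268 in untrained to 411, 468 and 457 in trained libraries. Fgf11, Cabp1 and Rims2 had CA3 differences of 0.55, 0.53 and 0.28 that did not pass (adjusted p from 0.0851 to 0.135, limma). Rims1, a presynaptic scaffold that binds Cav2 channels, rose in CA1 by 0.34 ± 0.06 (adjusted p = 0.00158, limma). In DG, where 3.39% of all genes passed, the 1 partner to do so was Ank3, ankyrin-G of the axon initial segment, which fell by 0.28 ± 0.06 on the log2 scale (adjusted p = 0.0170, limma). The median difference of the tested partner genes was 0.11 in CA1, 0.09 in CA3 and -0.10 in DG. Over all libraries 5 of the 27 tested partner genes were higher and 1 was lower, where 6.28% and 4.06% of all genes were. The lower gene was Flna (log2 difference -0.18, adjusted p = 0.0382, limma). Flna also passed as higher in CA1 minus DG (0.34, adjusted p = 0.0140, limma), where 2.02% of all genes passed.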

How the data were processed

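The members, the lists and the tests were chosen with earlier results of these data known. Per the submitters' processing notes and the methods, the authors demultiplexed reads with bcl2fastq 2.20, checked them with FastQC, trimmed them with Trim Galore, aligned them to GRCm38 with STAR and estimated gene counts with Salmon, and DESeq2 is named for their comparisons. The trimming and the GRCm38 build are from the processing notes. The study's methods for the bulk libraries describe no trimming and give another assembly name. The deposited signal is a normalized estimated count per gene. Its values sum to 7607326 to 7984931 per library and are not whole, so the depth behind them is unknown and no counting interval is given. How the values were normalized is not given in the sources used here.

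Values were tested with limma 3.58.1 in R 4.3.3 on log2(value + 2). Variances were moderated robustly along a trend with the mean, and p-values were adjusted by Benjamini-Hochberg over all genes tested, at a threshold of 0.05. Genes needed a value of at least 10 in as many libraries as the smallest group. A fold change on this scale understates changes of low genes. All channel genes enter the counts, 3 of them are not reported here by name, and the others past the threshold in a comparison of training or an interaction are given by library. Within a subregion the p-values measure the spread between 3 libraries a group or fewer. The main fits over all 16 libraries treat libraries of the same animal as independent. Their p-values measure the spread between libraries and not between animals. The script was tested on simulated data. Lengths and positions came from GENCODE M21 (97.98% of symbols matched, all 36 members), and promoters from RefSeq. Strand use in the counting is not given in the sources used here, and 9 channel genes, among them Cacna1c, Cacna1d, Cacna1h, Cacna2d3, Cacna2d4, Hcn3, Scn2b and Scn9a, overlap an opposite-strand gene of the files.

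By the labels' numbers, libraries of one animal come from different subregions. The deviations of same-numbered libraries from the group means correlated between -0.108 and 0.092 across genes, and the animal, taken from these numbers, as a random block changed no count of calls.

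Alternatives were other rescalings, pseudocounts and filters, no robust estimation, a GC content and length trend, sex-linked and CA1 marker covariates, a term for many genes at 0, all libraries in one fit, replicate blocks and each replicate left out.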

Additional observations from a re-analysis of the deposited data

Results flagged for a closer look

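The difference between trained and untrained libraries itself differed between CA1 and DG in the interaction test for 3 channel genes. The difference of the 2 differences (CA1 minus DG, log2) was 0.40 for Cacna1a (adjusted p = 0.0240, limma, and above 0.05 in each of the 6 fits that left out a replicate), 0.46 for Cacna1c (adjusted p = 0.0137) and -0.79 for Cacna1g (adjusted p = 0.0291). Cacna1a and Cacna1c were higher in trained CA1 and not in trained DG libraries, and Cacna1g was higher in trained DG libraries and not in trained CA1 ones. In CA3 Cacna1g was 235 to 299 in trained and 181 and 224 in untrained libraries (log2 difference 0.37, adjusted p = 0.221, limma). With the CA1 pyramidal marker level as a covariate the 3 differences were 0.31, 0.25 and -0.56, and none passed. None passed either with a term for the libraries with many genes at 0 (adjusted p = 0.9995 for each, limma), a split that follows training within CA1 and within DG. That term was estimated from the trained CA3 libraries alone and left the differences given above. The lost calls therefore do not tell the split and the interaction apart.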

How the results depend on the processing

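Of 19 differences of single genes, all kept their direction under each alternative run for them but upper quartile rescaling over the genes above 0 in each library, a set that differs between libraries: this rescaling moved the median gene by -0.38 to 0.33 (log2) per library and turned Cacna1a (-0.24), Cacna1c (-0.12) and Cacna1h (-0.17) in CA1, Scn3a in DG (0.15), and the CA1 minus DG interactions of Cacna1a (-0.48) and Cacna1c (-0.42). Not every alternative was run for all 19: the term for many genes at 0 was run for the 6 over all libraries and the 3 interactions and not within CA1 or DG, where it coincides with training. Median of ratios rescaling was among the alternatives, but it shifted every library by 0 and so could change no difference. The counts of channel genes called under this rescaling were 24 in CA1 (all lower), 0 in CA3, 21 in DG (all higher) and 0 over all libraries, and 27, 2 and 8 for the interactions CA1 minus DG, CA1 minus CA3 and CA3 minus DG, all lower. Taken over genes above 0 in every library, a setting chosen after seeing the data, the same rescaling gave 4, 2, 2, 6 and 4 where the report has 4, 3, 3, 6 and 3 (CA1, CA3, DG, all libraries, CA1 minus DG interaction).

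With the sex-linked covariate 0 channel genes were called in CA1, CA3, DG and over all libraries, and 1 (Cacna1a) in the CA3 minus DG interaction. With the CA1 pyramidal marker covariate, chosen after seeing the data, 1 was called in each of CA1, CA3 and DG and 0 in the CA1 minus DG interaction. Within CA1 the summed level of these markers separates the training groups by itself. Removing the GC content and length trend gave 0 in CA3 and 5 in that interaction. No robust estimation gave 1 in CA3 and 1 in DG, all libraries in one fit gave 5 in CA3, no filter gave 7 in the CA1 minus DG interaction, and the term for many genes at 0 gave 1 in CA1 minus DG and, in a fit chosen after seeing the data, 0 in the CA1 minus DG interaction. Without CA3 untrained replicate 1, also chosen after seeing the data, 3 were called over all libraries. The replicate number as a block gave 8 in CA3, where same-numbered trained and untrained libraries are different animals (correlations of their deviations 0.119 and -0.18), so the numbers do not pair them.

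Leaving out each replicate in turn gave 2 to 6 calls in CA1, 0 to 6 in CA3, 0 to 7 in DG, 2 to 8 over all libraries, 0 to 3 in the CA1 minus DG interaction and 0 to 1 in the CA1 minus CA3 interaction. The lowest counts came without trained replicate 2 in CA1 (2), DG (0) and over all libraries (2), without trained replicate 2 or untrained replicate 2 in CA3 (0), and without trained replicate 3 or untrained replicate 1 in the CA1 minus DG interaction (0). In CA3, 1 remained without untrained replicate 1 or trained replicate 3 and 6 were called without trained replicate 1. In DG, 1 was called without trained replicate 1 or 3 and 7 without untrained replicate 3. Over all libraries 3 were called without untrained replicate 1, and in the CA1 minus DG interaction 1 without trained replicate 2 or untrained replicate 3. Where 1 untrained library remained, it was assumed to vary like the trained ones. The cause of these differences was not tested.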
